A study of Homo sapiens with 6 samples.

Results

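The list of interferon-stimulated genes examined here holds 53 named genes. It joins genes that cells switch on in response to interferon with sensors and transcription factors of the same pathway. The 53 genes were taken from the 79302 genes of the deposited count table by matching each member's Ensembl identifier to its symbol. They were compared between HCT116 libraries with a control shRNA (shCtrl, n = 3) and HCT116 libraries with an shRNA against GDPD5 (shGDPD5, n = 3). HCT116 is a human colorectal cancer cell line, and GDPD5 encodes a glycerophosphodiester phosphodiesterase. The labels give only the cell line and the shRNA, while the study describes radioresistant HCT116 cells collected 6 h after 4 Gy of irradiation, so both groups would share the resistant background and the dose. No unirradiated library and no library of interferon-treated cells was analysed here. Of the 2 GDPD5 shRNA sequences that the study lists, the one behind these libraries is not named, and the labels do not say whether the libraries came from separate cultures. The p-values below therefore measure the spread between these libraries, which may be technical. In bulk RNA, fewer cells that express a gene and less of its RNA per cell cannot be told apart.

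Interferons are secreted proteins that warn cells of viruses and of misplaced nucleic acids. Cytosolic sensors such as RIGI and IFIH1 for RNA and CGAS for DNA set off interferon production, and secreted interferon then acts through its receptors and the JAK kinases. STAT2 and IRF9 belong to the complex that binds the interferon-stimulated response element (ISRE), the gamma-activated site (GAS) is the other common element of these promoters, and the target genes encode antiviral effectors, the sensors and several of the transcription factors themselves. In tumour cells the same genes can be expressed at a steady low level without added interferon, and ionizing radiation is known to raise them.

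Short stretches of promoter from RefSeq (GRCh38.p14) show the element that many members have in common. The promoter table gave windows of 250 bases before to 50 bases after a start site for 40 of the 53 members. Each window was searched on both strands for the ISRE core GAAANNGAAA, where N is any base, and for the GAS core TTCNNNGAA. The ISRE core lay in the promoter of 25 of these 40 members (62.5%), against 4.38% of the 27305 genes in the table. Counted by window, the core lay in 29 of the members' 56 windows, against 3.57% of all 35116 windows. With 1 mismatch allowed in the fixed letters, 33 members (82.5%) held it, against 37.7% of all genes. The GAS core lay in 11 members (27.5%), against 9.38% of all genes, and in 12 of the members' 56 windows, against 7.66% of all windows. A match is a description of letters, not evidence of binding. Examples are printed 5′ to 3′ on the strand of the gene with the core in capitals. All but the last of the ISRE examples belong to members that fell, and OAS3 is one of the 2 members that rose.
IFI6, chr1:27672288-27672317: ggagagagggGAAAATGAAActgcagagtg
BST2, chr19:17405735-17405764: ctgggaaactGAAACTGAAAacctaattaa
IFIT1, chr10:89392510-89392539: cactttccccTTTCGGTTTCcctaggtttc
ISG15, chr1:1013380-1013409: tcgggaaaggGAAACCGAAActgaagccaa
IFITM3, chr11:320876-320905: aaactgttgaGAAACCGAAActactgggga
DTX3L, chr3:122564322-122564351: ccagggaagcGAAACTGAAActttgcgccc
PARP9, chr3:122564322-122564351: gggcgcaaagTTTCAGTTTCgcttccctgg
OAS3, chr12:112938321-112938350: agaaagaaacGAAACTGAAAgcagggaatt
In IFIT1 and PARP9 the core reads on the opposite strand of the gene, so that it appears as its reverse complement. DTX3L and PARP9 are transcribed away from each other, and the 2 lines show the same bases of chromosome 3 from either strand, at positions -6 to 4 from the DTX3L start and -41 to -32 from the PARP9 start, counted with no position 0. The GAS core is shown for IRF1 and IRF9, a pair of transcription factor genes that fell.
IRF1, chr5:132490879-132490907: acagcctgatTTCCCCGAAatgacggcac
IRF9, chr14:24161192-24161220: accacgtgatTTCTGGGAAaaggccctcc

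Total estimated counts were between 16715447 and 18510670 per library. GDPD5 stood at 8.33, 11.6 and 9.75 CPM (read counts scaled to a common library total, with the TMM correction for library composition) in shCtrl and 5.43, 5.55 and 5.19 in shGDPD5, a log2 fold change of -0.88 (SE 0.135, edgeR adjusted p = 1.16e-04), in the labelled direction. Within groups, the spread of counts over genes was largest in the 2 comparisons with shCtrl replicate 1 (chi-square per degree of freedom 6.25 and 7.28, against 1.65 to 3.38 in the others), so results that rest on this library are also given without it. Of 8 colorectal epithelial markers, 6 were tested and all 6 were lower at an adjusted p under 0.05, against 30.1% of all tested genes. Their log2 fold changes ran from -0.16 for KRT8, whose groups overlapped, to -0.83 for CDH1. The 8 markers summed to 3172 to 3612 CPM in shCtrl and 2526 to 2634 CPM in shGDPD5. CDH17 and VIL1, intestinal markers, had at most 2 and 10 counts in a library. The 6 leukocyte markers summed to 0.959 to 1.47 CPM over all libraries, with CD3E at 0 in each. The 6 fibroblast markers summed to 19.0 to 24.2 CPM, nearly all from COL1A1, with COL1A2, DCN and LUM at 0. The part of these marker levels in the results below was not tested.

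Across the members, the levels were lower with the GDPD5 shRNA in nearly every role. Of 53 members, 45 passed the filter on low counts and were tested. Of these, 39 were lower in shGDPD5 at an adjusted p under 0.05, 2 were higher (OAS3 and CMPK2) and 4 did not pass (STAT2, IRF2, IRF3 and HERC5). Among all 16755 tested genes, 30.1% were lower and 29.7% higher, so that 86.7% of the members stood against a background of 30.1% in one direction and 4.44% against 29.7% in the other. A fall of at least 2-fold was called for 19 members and a rise of that size for 0, against 6.57% and 5.34% of all tested genes. Every shGDPD5 library was below every shCtrl library in 40 of the 45 tested members, against 32.4% of all tested genes, and the reverse held in OAS3 and CMPK2. The median log2 fold change of the tested members was -0.85, with a range of -2.70 to 0.79, while the median of all tested genes was 0.01. The members' summed level was 2451, 2501 and 2507 CPM in shCtrl and 1556, 1573 and 1544 CPM in shGDPD5. The members were named with earlier results of these data known, and the count of tested members includes IFI44 and PARP10, which passed the filter through shCtrl, and CMPK2, which passed it through shGDPD5. With a minimum of 10 counts in every library, these 3 drop out and 37 of 42 members were lower and 1 higher. In shCtrl replicate 1, 29 of the 45 members lay below the mean of the other 2 shCtrl libraries. Without that library, 41 members were called lower and 1 higher.

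**Figure D1:**
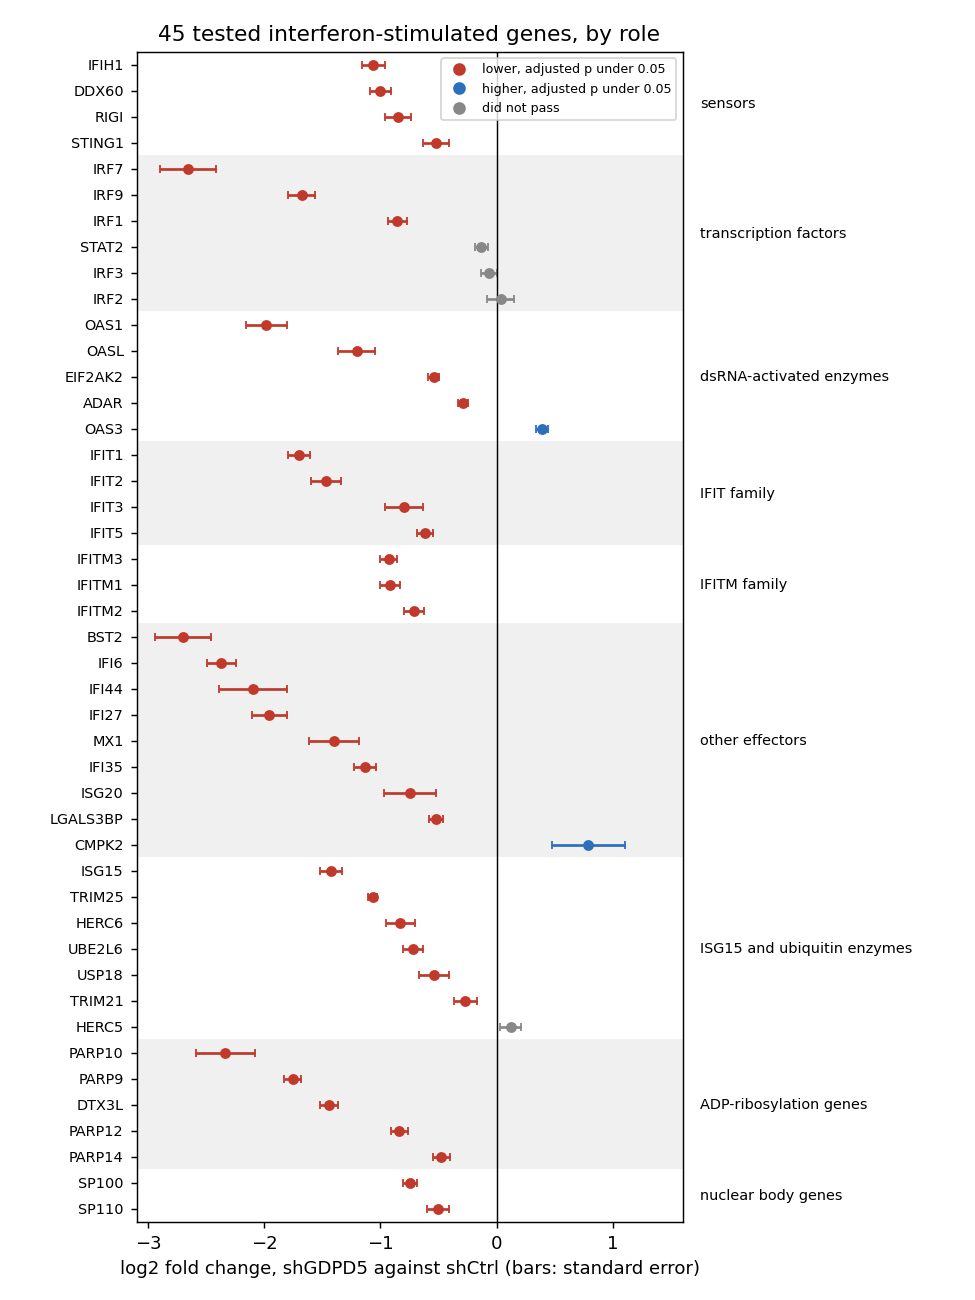
Log2 fold change of shGDPD5 against shCtrl (x axis) for the 45 tested interferon-stimulated genes, arranged by role, with points for the edgeR estimate from 3 libraries per group, bars for its standard error and color for the call. All but OAS3, CMPK2, HERC5 and IRF2 lie left of 0, and IRF7 (-2.66) and BST2 (-2.70) lie farthest left.

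To compare levels between genes, CPM were divided by the length of each gene's merged exons. On this scale IFITM3 was the most abundant member in shCtrl, at 138 ± 15.0 CPM per kb (SD, n = 3), followed by the secreted glycoprotein gene LGALS3BP at 84.4 ± 7.84 and TRIM25 at 48.0 ± 0.674. ADAR (41.8 ± 0.865) and ISG15 (41.6 ± 2.24) came next and did not differ beyond their spread, and neither did IFITM2 (28.1 ± 3.25) and IFITM1 (25.2 ± 2.32). These neighbours in the order depend on the length used, since with the longest transcript as length IFITM2 was at 48.6 CPM per kb and IFITM1 at 31.9, and ADAR at 57 and ISG15 at 49.7. At the other end, 13 of the 53 members stood under 1 CPM per kb in shCtrl, among them MX1 (0.293 ± 0.0201) and CMPK2 (0.199 ± 0.0846). In shCtrl 13 members reached 10 CPM per kb, and in shGDPD5 9 did. BST2 stood at 5.45 ± 0.758 CPM per kb in shCtrl and 0.839 ± 0.346 in shGDPD5 and IFI6 at 23.1 ± 1.85 and 4.47 ± 0.780, both lower in rank among the members in shGDPD5, while ADAR moved from 41.8 ± 0.865 to only 34.3 ± 1.02 CPM per kb.

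**Figure D2:**
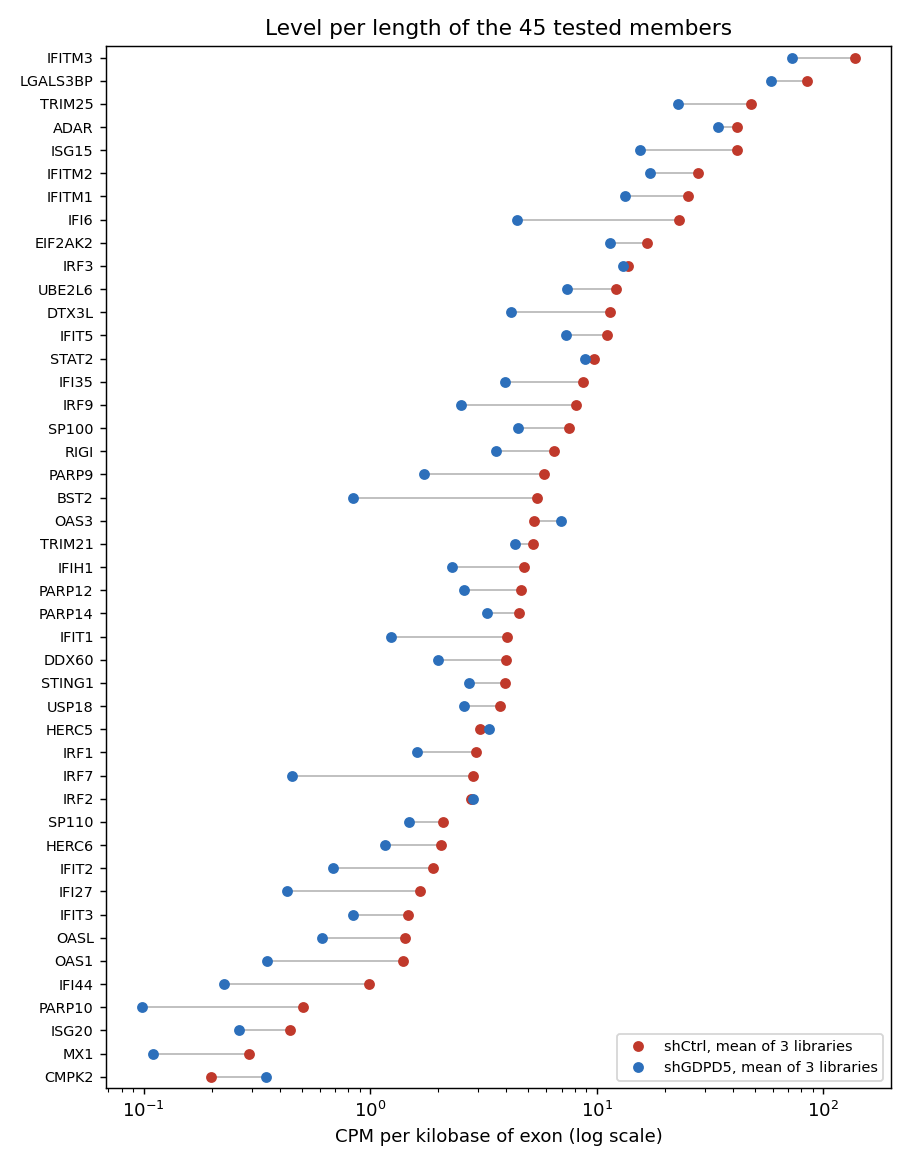
Mean level of the 45 tested members in CPM per kilobase of exon (x axis, log scale) in shCtrl (red) and shGDPD5 (blue), each the mean of 3 libraries, ordered by the shCtrl level. IFITM3 lies at the top with 138 CPM per kb in shCtrl and 72.5 in shGDPD5, and the gap between the colors is widest for BST2, IRF7, IFI6 and PARP10.

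The sensors among the members that could be tested were all lower with the GDPD5 shRNA. RIGI, IFIH1, DDX60 and STING1 fell (4 of 4 tested, median log2 fold change -0.93), and 3 further sensors, DHX58, IFI16 and CGAS, had 0 to 10 counts in any library and were not tested. IFIH1, which encodes the long double-stranded RNA sensor, was at 27.5, 22.1 and 23.8 CPM in shCtrl and 12.4, 10.8 and 12 CPM in shGDPD5. That is a log2 fold change of -1.06 (SE 0.0986, edgeR adjusted p = 1.47e-06), with the fitted shGDPD5 level at 47.9% of shCtrl and no overlap between groups. DDX60, a related helicase, was at 30.2, 24.7 and 25.7 CPM in shCtrl and 14.1, 13.2 and 13.0 CPM in shGDPD5 (log2 fold change -1.0, SE 0.0908, edgeR adjusted p = 1.19e-06). RIGI, which senses RNA with triphosphate ends, was at 33.1, 28.4 and 23.1 CPM in shCtrl and 15.0, 16.0 and 15.8 CPM in shGDPD5 (log2 fold change -0.85, SE 0.113, edgeR adjusted p = 3.27e-05). All 3 RNA sensors were highest in shCtrl replicate 1, and RIGI varied most between the shCtrl libraries, while the shGDPD5 libraries lay close together. Without shCtrl replicate 1 the log2 fold changes were -0.97 for IFIH1, -0.91 for DDX60 and -0.73 for RIGI. STING1, the adaptor that relays DNA sensing from CGAS, moved less, with a log2 fold change of -0.52 (SE 0.109, edgeR adjusted p = 0.00125). Its shCtrl replicate 1 was the lowest of the control libraries instead, at 12.8 CPM, still above the 10.8 CPM of the highest shGDPD5 library.

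Among the 6 transcription factors, IRF7, IRF9 and IRF1 fell and STAT2, IRF2 and IRF3 did not pass the test (median log2 fold change -0.49). IRF9, the DNA-binding partner of STAT2, stood at 26.7, 33.4 and 31.8 CPM in shCtrl and 8.01, 11.1 and 9.53 CPM in shGDPD5. The log2 fold change was -1.68 (SE 0.117, edgeR adjusted p = 1.10e-07), so the shGDPD5 level was 31.3% of the shCtrl level. IRF7, which drives interferon genes once induced, was at 6.64, 7.17 and 8.59 CPM in shCtrl and 1.87, 0.907 and 0.789 CPM in shGDPD5. It had the largest fall of the transcription factors (log2 fold change -2.66, SE 0.242, edgeR adjusted p = 1.26e-06), a 6.30-fold difference with no overlap, although its shGDPD5 counts were only 32, 17 and 14. IRF1, an early response factor, was at 22.8, 23.1 and 22.6 CPM in shCtrl and 12.2, 13.8 and 11.8 CPM in shGDPD5 (log2 fold change -0.86, SE 0.0822, edgeR adjusted p = 1.99e-06). The control libraries of IRF1 were the tightest of the group, and every shGDPD5 library lay well below them. STAT2 was at 56.5, 62.0 and 59.1 CPM in shCtrl and 53, 54.0 and 55.2 CPM in shGDPD5, where the groups did not overlap but the difference of -0.13 (SE 0.0552) had an edgeR adjusted p of 0.0552. IRF3, the factor that sensors activate by phosphorylation, had a log2 fold change of -0.07 (edgeR adjusted p = 0.441), and IRF2, which can repress the same sites, one of 0.03 (edgeR adjusted p = 0.815). Without shCtrl replicate 1, STAT2 (log2 fold change -0.17, edgeR adjusted p = 0.00643) and IRF3 (log2 fold change -0.14, edgeR adjusted p = 0.0333) were called lower, and IRF2 had a value of -0.043 (edgeR adjusted p = 0.756).

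The enzymes that double-stranded RNA activates did not move together. OAS1, OASL, EIF2AK2 and ADAR fell, OAS3 rose, and OAS2 was not tested, with 1 to 4 counts per library (median of the 5 tested -0.54). OAS1 and OAS3 encode oligoadenylate synthetases, whose product activates RNase L, and lie side by side on chromosome 12 with OAS2. OAS1 was at 7.69, 5.70 and 7.27 CPM in shCtrl and 2.05, 1.55 and 1.64 CPM in shGDPD5 (log2 fold change -1.98, SE 0.177, edgeR adjusted p = 1.06e-06). OAS3 was at 43.1, 43.0 and 45 CPM in shCtrl and 57.7, 58.8 and 55.3 CPM in shGDPD5 (log2 fold change 0.39, SE 0.0549, edgeR adjusted p = 5.54e-05). Thus the lowest shGDPD5 library of OAS3 was above its highest shCtrl library, while OAS1 was about 3.95-fold lower, and OAS3 was the more abundant of these neighbours per kb of exon in both groups (shCtrl 5.30 ± 0.140 CPM per kb against 1.39 ± 0.212). OASL, a family member without the synthetase activity, was at 4.66, 5.25 and 5.08 CPM in shCtrl and 2.05, 1.98 and 2.48 CPM in shGDPD5 (log2 fold change -1.20, SE 0.160, edgeR adjusted p = 3.36e-05). EIF2AK2 encodes the kinase PKR, which halts translation, and was at 189.8, 175 and 174 CPM in shCtrl and 121, 125 and 125 CPM in shGDPD5 (log2 fold change -0.54, SE 0.0493, edgeR adjusted p = 1.23e-06). Both genes were lower in every shGDPD5 library than in any shCtrl library. ADAR, which edits adenosine to inosine in double-stranded RNA, had the smallest of the 4 falls (log2 fold change -0.29, SE 0.0428, edgeR adjusted p = 9.17e-05).

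All 4 IFIT genes and all 3 IFITM genes fell. Of the IFIT proteins, IFIT1 binds viral RNA that lacks the cap modifications of the host, and IFITM proteins sit in membranes and hinder the fusion of viruses. IFIT1 was at 19.4, 19.0 and 17.5 CPM in shCtrl and 5.67, 5.92 and 5.53 CPM in shGDPD5, a 3.26-fold fall (log2 -1.71, SE 0.0952, edgeR adjusted p = 1.49e-08). IFIT2 was at 7.75, 7.90 and 7.67 CPM in shCtrl and 2.81, 2.56 and 3.04 CPM in shGDPD5 (log2 fold change -1.47, SE 0.130, edgeR adjusted p = 9.25e-07). Both genes were even within groups, and no shGDPD5 library came near a control library. IFIT5 was more abundant and moved less, from 47.0, 45.4 and 42.0 CPM in shCtrl to 29.2, 27.5 and 31.1 CPM in shGDPD5 (log2 fold change -0.61, SE 0.0682, edgeR adjusted p = 7.21e-06). IFIT3 was at 3.49, 4.06 and 4.04 CPM in shCtrl and 2.28, 2.08 and 2.31 CPM in shGDPD5 (log2 fold change -0.80, SE 0.163, edgeR adjusted p = 0.00105). Thus the family ranged from -1.71 to -0.61 within a cluster of 4 genes on chromosome 10 (chr10:89283694-89421001).

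In the IFITM family the falls were closer to each other in size, with log2 fold changes of -0.93, -0.92 and -0.71 (median -0.92). IFITM3 was at 163, 197 and 199 CPM in shCtrl and 101, 98.2 and 93.8 CPM in shGDPD5 (SE 0.0720, edgeR adjusted p = 2.91e-07). IFITM1 was at 24.5, 28.0 and 29.3 CPM in shCtrl and 14.8, 13.8 and 14.7 CPM in shGDPD5 (SE 0.0844, edgeR adjusted p = 1.32e-06). IFITM2 was at 37.6, 46.0 and 46.4 CPM in shCtrl and 25.7, 28.2 and 25.6 CPM in shGDPD5 (SE 0.0849, edgeR adjusted p = 1.41e-05). In each of the 3 genes shCtrl replicate 1 was the lowest control library and still lay above every shGDPD5 library. They are close paralogues on chromosome 11 (chr11:307631-327537), and annotated exons of IFITM1 and IFITM2 overlap on the same strand, so how reads were divided between them is uncertain. Without shCtrl replicate 1, the log2 fold changes were -1.02 for IFITM3, -1.0 for IFITM1 and -0.80 for IFITM2.

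Of the remaining 13 effectors, 9 were tested, 8 fell and CMPK2 rose (median -1.40). IFI6, a small membrane protein that counters apoptosis and flaviviruses, was at 18.3, 20.3 and 21.4 CPM in shCtrl and 4.38, 4.11 and 3.10 CPM in shGDPD5 (log2 fold change -2.37, SE 0.126, edgeR adjusted p = 9.90e-09). IFI27, of the same protein family, was at 6.41, 7.05 and 7.27 CPM in shCtrl and 1.99, 1.66 and 1.69 CPM in shGDPD5 (log2 fold change -1.96, SE 0.151, edgeR adjusted p = 2.72e-07). The shGDPD5 levels of these genes were 19.3% and 25.8% of the shCtrl level. IFI35 was at 15.9, 18.5 and 16.9 CPM in shCtrl and 7.71, 7.74 and 7.95 CPM in shGDPD5 (log2 fold change -1.13, SE 0.0950, edgeR adjusted p = 5.92e-07). BST2, which tethers budding virus particles to the cell, is named for its size of change after its values were seen, and stood at 5.12, 6.66 and 6.52 CPM in shCtrl and 0.877, 0.587 and 1.35 CPM in shGDPD5. Its 6.49-fold fall was the largest of all tested members (log2 fold change -2.70, SE 0.240, edgeR adjusted p = 9.95e-07), from counts of 15, 11 and 24 in shGDPD5. IFI44 (log2 -2.09) and the dynamin-like GTPase gene MX1 (log2 -1.40) also fell by more than 2-fold at low counts, and the exonuclease gene ISG20 (log2 fold change -0.74, edgeR adjusted p = 0.0129) and LGALS3BP (log2 fold change -0.52, edgeR adjusted p = 1.22e-05) by less. The mitochondrial nucleotide kinase gene CMPK2 had counts of 8, 21 and 16 in shCtrl and 28, 30 and 22 in shGDPD5 (log2 fold change 0.79, SE 0.315, edgeR adjusted p = 0.0462). Its levels, 0.466, 1.19 and 0.923 CPM in shCtrl against 1.64, 1.6 and 1.24 CPM in shGDPD5, nearly met, and without shCtrl replicate 1 the call was lost (log2 fold change 0.49, edgeR adjusted p = 0.158). Its head-to-head neighbour RSAD2, the antiviral gene viperin, had 1 to 4 counts per library and was not tested.

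**Figure D3:**
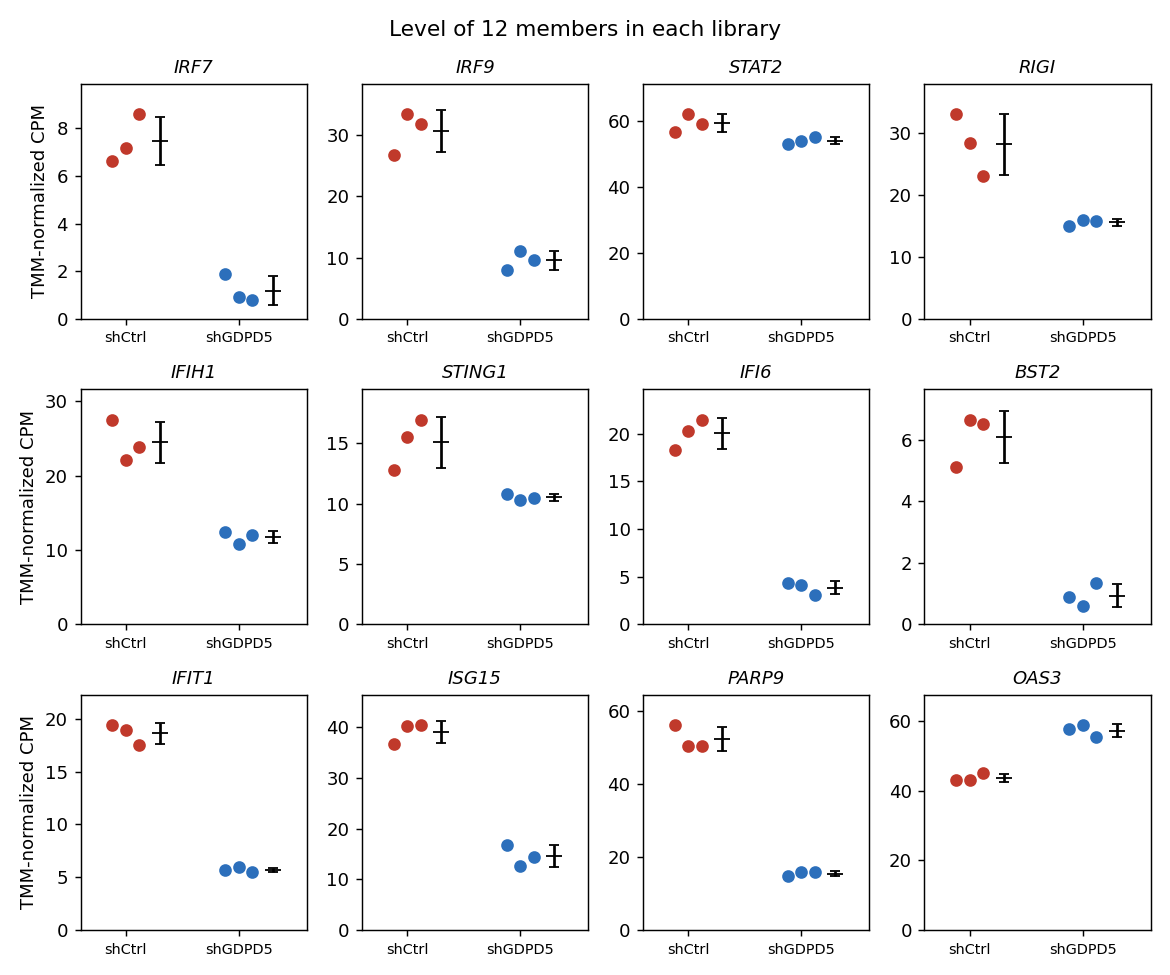
TMM-normalized CPM (y axis, from 0) of 12 members in each of the 3 shCtrl libraries (red) and 3 shGDPD5 libraries (blue), with the group mean and SD in black. Groups are separate in every panel, with OAS3 alone higher in shGDPD5 (55.3 to 58.8 CPM against 43.0 to 45 CPM) and STAT2 closest to overlap.

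ISG15 encodes a ubiquitin-like protein that is attached to other proteins by a dedicated chain of enzymes, of which UBE2L6 is the conjugating enzyme, HERC5 the main human ligase and USP18 the protease that removes it. Of the 7 genes of this group 6 fell and HERC5 did not pass the test (median -0.72). TRIM25, a ubiquitin ligase that acts on the RIGI protein, was at 462, 456 and 449 CPM in shCtrl and 219, 221 and 213 CPM in shGDPD5. Its log2 fold change of -1.07 had the smallest standard error of the tested members (SE 0.0416) and their lowest adjusted p (edgeR adjusted p = 6.94e-10). ISG15 was at 36.7, 40.2 and 40.4 CPM in shCtrl and 16.8, 12.5 and 14.4 CPM in shGDPD5 (log2 fold change -1.43, SE 0.0927, edgeR adjusted p = 5.79e-08). UBE2L6 was at 23.5, 29.2 and 27.8 CPM in shCtrl and 15.8, 16.9 and 16.2 CPM in shGDPD5 (log2 fold change -0.72, SE 0.0882, edgeR adjusted p = 1.65e-05). Within this chain, then, the modifier had the largest fall, the conjugating enzyme a smaller one and USP18 a log2 fold change of -0.54 (edgeR adjusted p = 0.00363). HERC5 was at 15.1, 15.3 and 13.6 CPM in shCtrl and 16.1, 14.8 and 16.9 CPM in shGDPD5, overlapping groups with a difference of 0.12 (SE 0.0888, edgeR adjusted p = 0.264). HERC6, its neighbour on chromosome 4 (chr4:88378739-88506163), was at 12.3, 10.7 and 12.8 CPM in shCtrl and 6.66, 5.87 and 7.61 CPM in shGDPD5 (log2 fold change -0.83, SE 0.122, edgeR adjusted p = 7.98e-05). TRIM21, the cytosolic receptor for antibody-coated virus, was near the threshold at -0.27 (edgeR adjusted p = 0.0317).

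The 5 genes of ADP-ribosylation all fell (median -1.44). PARP9 and DTX3L form a complex that modifies histones and ubiquitin and has been placed at DNA breaks as well as at interferon targets. PARP9 was at 56.1, 50.3 and 50.5 CPM in shCtrl and 14.7, 15.8 and 15.8 CPM in shGDPD5, where the level was 29.6% of control (log2 fold change -1.76, SE 0.0702, edgeR adjusted p = 8.53e-10). DTX3L was at 70.2, 67.8 and 62.9 CPM in shCtrl and 25.0, 26.7 and 22.1 CPM in shGDPD5, 36.8% of control (log2 fold change -1.44, SE 0.0742, edgeR adjusted p = 7.21e-09). Both genes of the divergent pair, whose shared promoter core is printed above, were separate between groups, and their annotated exons overlap on opposite strands over a short stretch, so their counts may not be fully separate. PARP14, the next member on that stretch of chromosome 3 (chr3:122527924-122730840), fell by less (log2 fold change -0.48, SE 0.0730, edgeR adjusted p = 1.12e-04). PARP12, a mono-ADP-ribosyltransferase with RNA-binding zinc fingers, was at 27.6, 31.2 and 28.8 CPM in shCtrl and 16.1, 16.6 and 16.4 CPM in shGDPD5 (log2 fold change -0.84, SE 0.0723, edgeR adjusted p = 7.75e-07). PARP10 had the largest fold of the group (log2 fold change -2.34, SE 0.253, edgeR adjusted p = 5.84e-06) on 8 to 14 counts per shGDPD5 library. The nuclear body genes SP100 and SP110 fell as well. SP100 was at 101, 92.4 and 92.8 CPM in shCtrl and 56.0, 59.7 and 54.8 CPM in shGDPD5 (log2 fold change -0.75, SE 0.0568, edgeR adjusted p = 2.46e-07). SP110 was at 14.2, 13.9 and 15.4 CPM in shCtrl and 9.70, 10.2 and 10.7 CPM in shGDPD5 (log2 fold change -0.50, SE 0.0913, edgeR adjusted p = 4.27e-04). Neither gene overlapped between groups.

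Set side by side, the roles differed in how many members fell and by how much, which is given as a description because the members share their libraries. Sensors had 4 of 4 tested members lower and transcription factors 3 of 6 (50%), against 30.1% of all tested genes. Effectors (the double-stranded RNA enzymes, IFIT, IFITM and remaining effectors together) had 19 of 21 lower, with the 2 rises. The medians were -0.93 for sensors, -0.93 for effectors and -0.49 for transcription factors. The spread was widest in the effectors, from -2.70 to 0.79, and in the transcription factors, from -2.66 to 0.03, and narrow in the sensors, from -1.06 to -0.52. A fall of at least 2-fold was called in 2 sensors (IFIH1 and DDX60), 10 effectors and 2 transcription factors (IRF7 and IRF9), against 6.57% of all tested genes. Without shCtrl replicate 1, IFIH1 (log2 fold change -0.97) and DDX60 (log2 fold change -0.91) no longer reached 2-fold. In the same fit STAT2 (log2 fold change -0.17) and IRF3 (log2 fold change -0.14) were called lower. The count of 3 of 6 transcription factors therefore depends on that library. The difference between roles was not tested.

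The 8 members that were not tested were DHX58, IFI16, CGAS, OAS2, MX2, RSAD2, IFI44L and XAF1. Their counts were 0 to 10 per library, and no fold is given for them. XAF1 had 1, 2 and 10 counts in shCtrl and 0, 1 and 0 in shGDPD5, and IFI44L had 4, 4 and 2 against 0, 0 and 1. OAS2 and MX2, next to the tested OAS3 and MX1, had 1 to 4 and 0 to 5 counts. The cytosolic DNA sensor CGAS had 0 to 2 counts in every library, so its level could not be compared at this depth.

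The promoter core was set beside the fold changes without a test. Among all tested genes 30.1% were lower, and among all tested members 86.7%. Of the members with an ISRE core, 23 were tested, 21 fell, OAS3 rose and HERC5 did not pass, with a median of -0.93. Without the core in the window, 13 were tested, 11 fell, CMPK2 rose and STAT2 did not pass, with a median of -0.83. For the 9 tested members with no window in the table, 7 fell and the median was -0.71. All 11 members with a GAS core were tested and fell (median -1.13), against 21 of 25 tested members with a window but no GAS core (median -0.80). The members that rose were thus found on either side of the ISRE split, and OAS3 carried the same 10 bases in its core as BST2 and DTX3L.

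**Figure D4:**
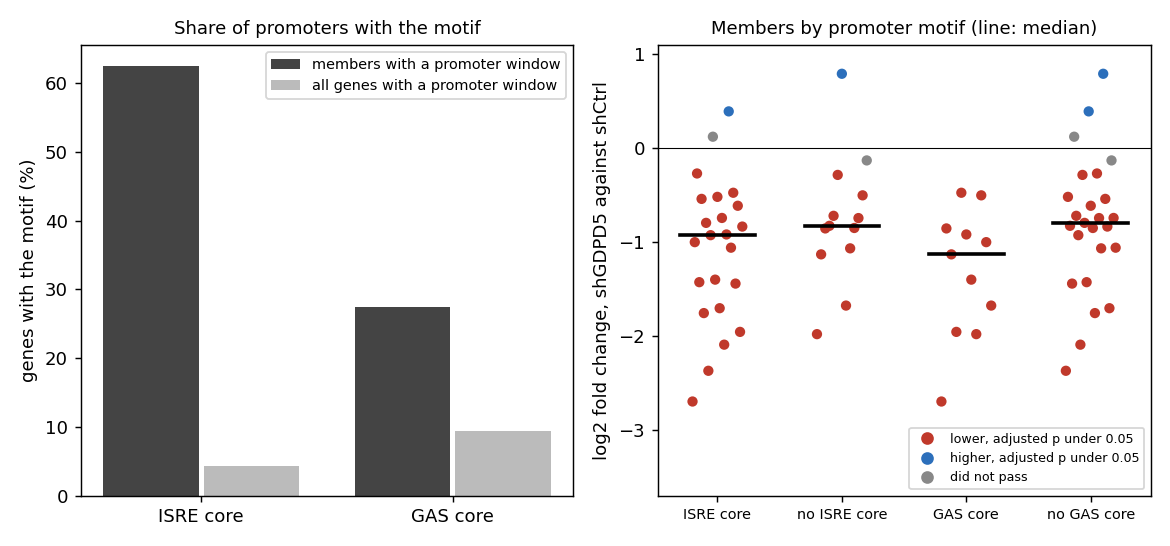
Left, the share of genes (y axis, percent from 0) whose RefSeq promoter window holds an ISRE or a GAS core, for the 40 members with a window (dark) and all 27305 genes of the table (light), at 62.5% against 4.38% and 27.5% against 9.38%. Right, log2 fold change of tested members with and without each core, where points are genes colored by call and lines are medians, and the ISRE medians of -0.93 and -0.83 lie close together.

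Exons of 21 of the 53 members overlap another annotated gene, and whether strand was used in counting is not given in the sources used here. Of the 27 tested members with no such overlap, 23 fell and 1 rose, with a median of -0.80. Of the 18 tested members with an overlap, 16 fell and 1 rose, with a median of -1.0. Among all tested genes, 30.1% were lower and 29.7% higher. IRF9 and TRIM25, like IFITM1 and IFITM2, overlap a protein-coding gene on their own strand, so reads there could have gone to either gene.

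The genes upstream of the members were measured from the same fit, in which 30.1% of all tested genes were lower and 29.7% higher. Of 22 interferon ligand genes, 13 had 0 counts in all libraries, where a count of 0 allows up to 0.162 to 0.179 CPM per library, and 21 were not tested, with at most 2 counts in a library. IFNB1 had a single count in 1 library. IFNE, an epithelial type I interferon, was the exception, with counts of 19, 6 and 4 in shCtrl and 31, 31 and 24 in shGDPD5 (log2 fold change 1.52, SE 0.421, edgeR adjusted p = 0.00769), and passed the filter on low counts through shGDPD5, where it is higher. Without shCtrl replicate 1 its log2 fold change was 2.46. Of the 6 receptor chains, IFNGR2 (log2 -0.71), IFNGR1 (log2 -0.52) and IL10RB (log2 -0.34) fell, IFNLR1 (log2 0.63) and IFNAR2 (log2 0.23) rose, and IFNAR1 did not pass (log2 fold change 0.02, edgeR adjusted p = 0.801). The kinase gene JAK1 was at 178, 167 and 174 CPM in shCtrl and 101, 100 and 95.5 CPM in shGDPD5 (log2 fold change -0.81, SE 0.0482, edgeR adjusted p = 2.72e-08). TYK2, the other kinase of the type I receptor, rose (log2 fold change 0.47, edgeR adjusted p = 1.16e-04), and JAK2 did not pass (log2 fold change -0.10, edgeR adjusted p = 0.467).

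Of 8 adaptors and kinases downstream of the sensors, TBK1 (log2 0.68) and MAVS (log2 0.19) rose, TANK (log2 -0.41) and TICAM1 (log2 -0.43) fell, and 4 did not pass. Of 8 tested negative regulators 3 rose, with the smallest adjusted p for SAMHD1 (log2 fold change 0.71, edgeR adjusted p = 2.50e-06) and including the DNA exonuclease TREX1 (log2 fold change 1.83, edgeR adjusted p = 0.00141) on 3 to 42 counts per library, and 4 fell, among them SOCS3 (log2 fold change -0.59, edgeR adjusted p = 1.92e-04). TREX1, like IFNE, passed the filter through shGDPD5, the group where it is higher, and its exons lie within ATRIP on the same strand, so its reads are uncertain. USP18, a member that also restrains receptor signalling, fell. Of 35 other interferon-stimulated genes, 26 were tested, 18 fell (69.2%), 3 rose (11.5%) and 5 did not pass. Their median was -0.41, against -0.85 in the members. GBP2, GBP3 and EPSTI1, among the 18, passed the filter through shCtrl, the group where they are higher. With at least 10 counts in every library, 15 of these other genes fell and 3 rose. Those with the smallest adjusted p were LAMP3 (log2 -3.19), the scramblase gene PLSCR1 (log2 -2.12) and APOL6 (log2 -3.52). APOL6 had 300 to 363 counts in shCtrl and 21 to 39 in shGDPD5. The 3 that rose were APOL2 (log2 0.76), TRIM26 (log2 0.40) and PML (log2 0.33), the organizer of the nuclear bodies that hold SP100.

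**Figure D5:**
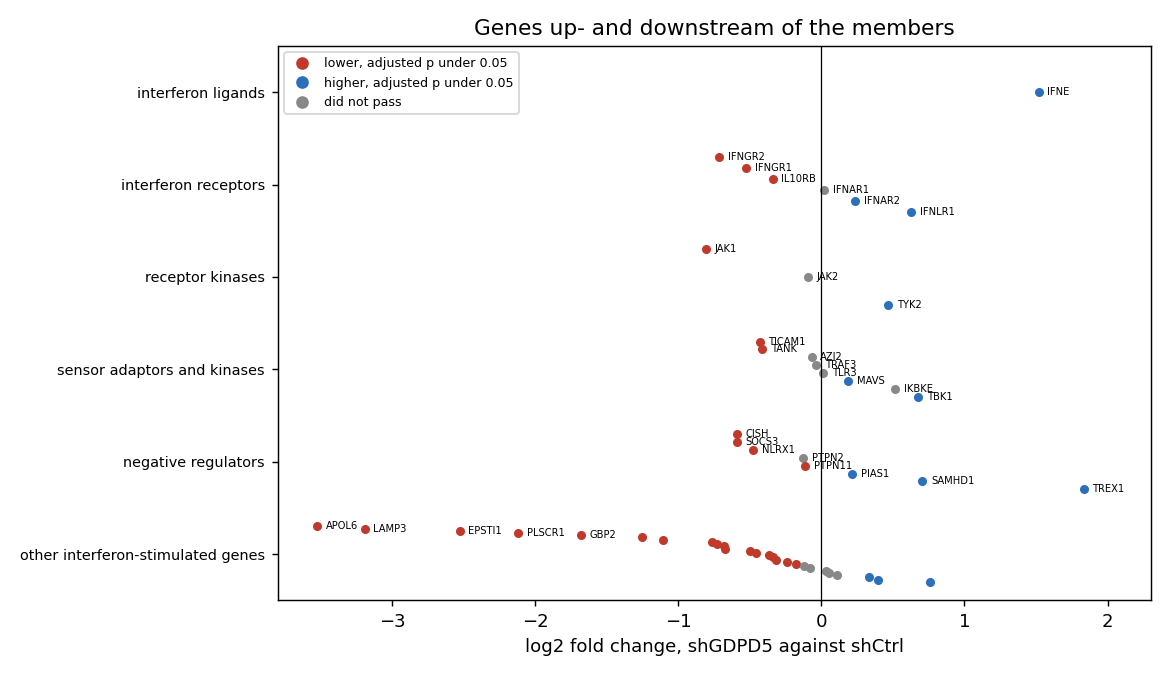
Log2 fold change of shGDPD5 against shCtrl (x axis) for genes of 6 lists around the members, with points colored by the edgeR call. JAK1 lies at -0.81, the adaptors and regulators lie on both sides of 0, and most of the other interferon-stimulated genes lie left of 0, down to -3.52 for APOL6.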

How the data were processed

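RNA was extracted from HCT116 cells, and per the labels the libraries were made with a SMARTER mRNA-Seq kit. A single table of estimated counts was deposited by the authors, one value per gene and library, not scaled between libraries, for 3 shCtrl and 3 shGDPD5 libraries, which were grouped by their labels. The sources used here do not name the aligner, the counting tool, the strand setting or the build. Of 79302 genes, 370 carry only a processing name.

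The estimated counts were rounded to whole numbers (a change of at most 0.5). The default filter of edgeR 4.0.16 in R 4.3.3 (minimum count 10) left 16755 genes, 15993 of them with a symbol. All 6 libraries were fitted with TMM scaling and the quasi-likelihood test, with Benjamini-Hochberg adjustment over all 16755 genes and a threshold of 0.05. The common biological coefficient of variation was 0.0555. The standard error was taken from the log2 fold change and its F statistic. The depth of 16715447 to 18510670 counts limits precision for genes of a few counts. A count of 0 was read as at most 3 counts, for counting error only.

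The members, roles and lists were chosen with earlier results of these data known. Values in every library were given for the 3 members of each role with the smallest adjusted p, for members called against their role and for members that may share reads with a paralogue or neighbour, and up to 3 genes of each other list were named by adjusted p. The other genes of the small pathway lists were added after their values were seen. Gene positions and exon lengths came from GENCODE 29 on GRCh38, and promoters from RefSeq on GRCh38.p14. Alternatives were RLE and upper quartile factors, no filter, at least 10 counts in every library, DESeq2 1.42.0, limma-voom (limma 3.58.1), leaving out 1 library at a time, a fit with a replicate block, a motif mismatch and the longest transcript as length. Not every gene of the other lists is reported here.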

Additional observations from a re-analysis of the deposited data

How the results depend on the processing

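Of the 45 tested members, 39 kept their direction and their side of the threshold in each alternative fit that gave them a value (the stricter filter of 10 counts per library left none for IFI44 and PARP10), and the exceptions were STAT2, IRF2, IRF3, CMPK2, ISG20 and TRIM21. The members called lower numbered 37 to 41 and those at least 2-fold lower 16 to 20 (39 and 19 in the report). The members called higher, 2 in the report, were 1 with at least 10 counts in every library, with DESeq2 and with the replicate block, and 1 to 2 with a library left out. Members called at least 2-fold higher were 0 to 1 with a library left out, against 0. CMPK2 was not called with DESeq2 (0.79, adjusted p = 0.133) or without any 1 of 4 libraries, among them shCtrl replicate 1 (0.49, adjusted p = 0.158). ISG20 missed the threshold without shCtrl replicate 2 (adjusted p = 0.0505) and without shGDPD5 replicate 3 (adjusted p = 0.0575). TRIM21 missed it with no filter (adjusted p = 0.0661), with DESeq2 (adjusted p = 0.128) and without any of 3 libraries in turn. IRF2, not called in any fit, ranged from -0.043 without shCtrl replicate 1 (adjusted p = 0.756) to 0.13 without shCtrl replicate 3. With a library left out, the role medians ranged from -1.01 to -0.82 for sensors, -0.57 to -0.50 for the double-stranded RNA enzymes, -1.18 to -1.09 for the IFIT family, -0.81 to -0.66 for ISG15 and the ubiquitin enzymes and -1.51 to -1.37 for the ADP-ribosylation genes. The last was -1.14 with at least 10 counts in every library, since PARP10 then drops out. With the longest transcript as length, 17 members reached 10 CPM per kb in shCtrl, against 13. The cause of the other changes was not tested.

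The replicate numbers did not pair the libraries: deviations of same-numbered libraries from their group means correlated at -0.07, -0.0517 and -0.041. With the replicate block, 38 members were lower and 1 higher, and CMPK2 (adjusted p = 0.0554) and TRIM21 (adjusted p = 0.0560) were not called. Genes of fewer than about 10 counts, 8 members among them, could not be compared at this depth.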
